A study of Homo sapiens with 44 samples.

Results

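The annexins are a family of calcium-dependent phospholipid-binding proteins, and 10 of them were followed across 44 RNA-seq libraries of A549, a human lung adenocarcinoma line, grown in culture or as xenograft tumours. The members were ANXA1, ANXA2, ANXA3, ANXA4, ANXA5, ANXA6, ANXA8, ANXA9, ANXA10 and ANXA13. They are 10 of the 13 protein-coding annexin genes in the annotation and 10 of 58721 genes in each count table. They were chosen by their levels, as read counts scaled to library size (CPM), across the 12 sample groups, with those levels already known. Every level, difference and call (defined below) of a member is therefore a description, and no p-value of a member is printed. ANXA7, ANXA11 and ANXA8L1, the other protein-coding annexins, and 3 ANXA2 pseudogenes were kept as a comparison.

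Annexins bind acidic phospholipids on the cytosolic side of membranes when calcium rises, and they organise membrane domains, vesicle traffic and the repair of torn membranes. Several act in complexes with small S100 proteins, the best known being ANXA2 with S100A10, which can also sit at the cell surface and bind plasminogen. ANXA1 is induced by glucocorticoids and restrains inflammation through formyl peptide receptors, ANXA5 is the standard probe for exposed phosphatidylserine, and ANXA4, ANXA8 and ANXA13 are known mainly from epithelia.

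The study compared the parental A549 line, labelled WT, with 3 isogenic lines in which the TAZ2 domain of p300 is truncated, labelled het1, het2 and homo. The protein p300, encoded by EP300, is a histone acetyltransferase and coactivator, and TAZ2 is one of its zinc-binding domains for transcription factors. Each of the 4 lines gave 3 libraries of cultured cells and 4 libraries of xenograft tumours taken at day 30. WT and het1 tumours were also given the vehicle DMSO or the histone deacetylase inhibitor SAHA (vorinostat) for 4 weeks, with 4 libraries in each of these 4 groups. The labels name no host strain, do not say whether an edited line is a single clone, and leave unstated whether replicate libraries had separate cultures or animals as their source, so errors measure the spread between these libraries, which may be technical.

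Promoter windows from RefSeq (GRCh38.p14, 250 bases before to 50 after each annotated start) were found for 8 of the 10 members, and 10 windows were read in all. CpG content differed between the members. The ANXA1 and ANXA10 windows held 0 CpG, as did 3.96% of all 35116 windows, whereas the ANXA9 window held 5, the 2 ANXA6 windows 25 and 10, ANXA3 25, ANXA2 32, ANXA5 36 and the 2 ANXA4 windows 44 and 27. The median over all windows was 14. Shown for 3 windows are the parts before any exon annotated within the window. They were chosen because the ANXA1 and ANXA10 stretches hold no CpG and the ANXA2 stretch holds 24. Capitals mark every match, on either strand, to TATA box letters TATAAA, AP-1 motif TGANTCA, the CCAAT box, E-box letters CACGTG or TEAD motif GGAATG. The printed strand is that of the gene, 5′ to 3′, at chr9:73151615-73151756 (plus), chr4:168092287-168092514 (plus) and chr15:60398044-60398236 (minus).
ANXA1: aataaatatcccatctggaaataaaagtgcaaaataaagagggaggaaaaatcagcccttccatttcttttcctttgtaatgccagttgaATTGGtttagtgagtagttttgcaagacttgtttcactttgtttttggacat
ANXA10: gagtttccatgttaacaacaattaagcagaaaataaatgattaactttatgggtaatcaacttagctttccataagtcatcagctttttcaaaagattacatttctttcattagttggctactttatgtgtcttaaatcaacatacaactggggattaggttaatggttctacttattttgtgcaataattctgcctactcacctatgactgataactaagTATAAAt
ANXA2: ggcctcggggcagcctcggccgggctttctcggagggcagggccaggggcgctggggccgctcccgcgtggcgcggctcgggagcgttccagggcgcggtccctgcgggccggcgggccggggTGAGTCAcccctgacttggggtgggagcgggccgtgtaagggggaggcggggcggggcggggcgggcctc
The ANXA1 stretch holds a CCAAT match on the reverse strand, the ANXA10 stretch TATAAA near its end and the ANXA2 stretch 1 AP-1 match. The ANXA2 stretch lies inside the annotated gene (chr15:60347134-60402883, minus strand), so it is not upstream of the whole gene. The stretches are shorter than the windows of 300 bases. The whole ANXA1 window held 1 TATAAA and 2 CCAAT matches. The whole ANXA10 window held 1 TATAAA match, and the whole ANXA2 window 1 TATAAA and 1 AP-1 match. Over all whole windows TATAAA was present in 11.5%, TGANTCA in 7.71%, CCAAT in 34.6%, CACGTG in 7.26% and GGAATG in 14.0%. These matches describe letters in the windows and carry no statement about binding.

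Total counts ran from 61168373 to 99593214 per library. The mean correlation of a library with the others of its group was lowest in WT SAHA replicate 6, at 0.988. EP300 itself was read at 115 CPM in WT cells against 185, 153 and 190 CPM in het1, het2 and homo cells, and gene-level counts do not show the truncation. Of 9 listed A549 and lung epithelial markers, 6 averaged at least 1 CPM in WT cells, while NKX2-1, SFTPB and SFTPC were near 0. The summed level of the 9 was 5379 to 5650 CPM in WT cells, 1906 to 2003 in het1, 1703 to 1769 in het2 and 752 to 765 in homo cells. Fibroblast markers summed to 9.86 to 74.2 CPM in cells and 109 to 526 CPM in tumours, endothelial markers to at most 8.30 CPM and myeloid markers to between 13.2 and 74.1 CPM in tumours. Skeletal muscle markers varied widely within tumour groups, with sums of 1.24 to 157 CPM in WT DMSO and 6.98 to 86.3 CPM in WT SAHA tumours. The handling of host reads is not given in any source used here. In the bulk tumours, fewer cells of a type and less RNA per cell cannot be told apart. The cultured libraries were of the A549 lines alone.

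Levels are CPM after TMM scaling within a table, and a gene was called when edgeR's quasi-likelihood test, adjusted over all genes tested, gave a value under 0.05. Differences are log2 fold changes ± SE. The gene lists set beside the members below were also chosen with earlier results of these data known. Adjusted p-values of their genes are therefore descriptive and are no independent tests. In cells, 9 of 10 members were called in het1 against WT (2 higher, 7 lower), beside 62.8% of all genes tested. All 10 were called in het2 (1 higher, 9 lower; background 68.5%) and in homo (2 higher, 8 lower; background 70.5%). Called differences of at least 2-fold were seen for 5, 5 and 7 members in het1, het2 and homo cells, beside 19.6%, 23.7% and 26.6% of all genes tested, and the median member difference was -0.77, -0.86 and -1.59 in het1, het2 and homo, beside medians of 0.025, 0.017 and 0.005 over all genes. In day 30 tumours 9 members were called in het1 (2 higher, 7 lower; background 51.5%), 9 in het2 (3 higher, 6 lower; background 49.2%) and 10 in homo (3 higher, 7 lower; background 54.8%). Since the members were chosen on these levels, nothing is read from their counts against the backgrounds.

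**Figure D1:**
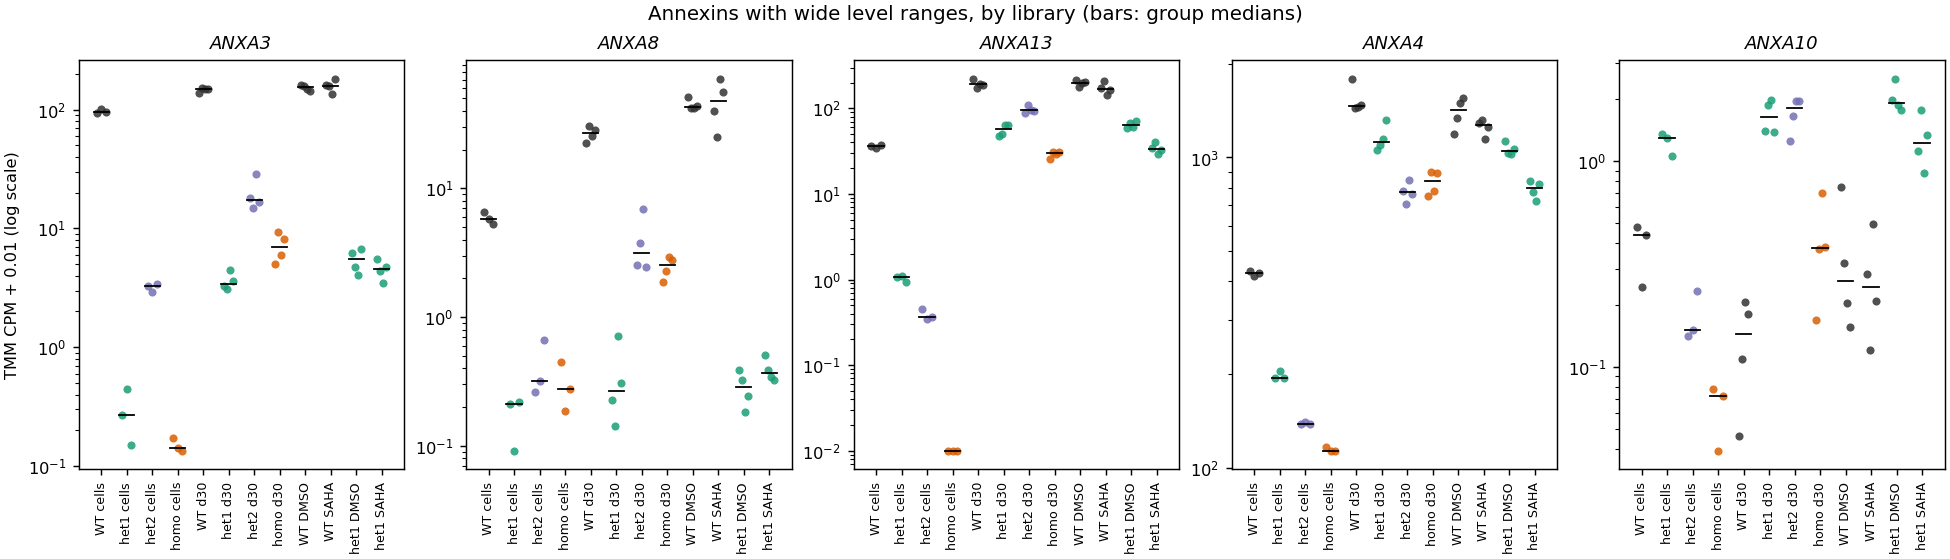
TMM CPM in each of the 44 libraries (dots) for the 5 members whose group means spanned at least 8-fold, on a log axis after adding 0.01 CPM, with group medians as bars; WT is dark grey, het1 green, het2 purple and homo orange. The WT libraries of ANXA3, ANXA8 and ANXA13 lie above all libraries of the other lines from the same experiment, and the 3 homo cell libraries of ANXA13 lie at 0 counts.

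ANXA3 (chr4:78551519-78610451, plus strand; all gene coordinates are GENCODE 29 on GRCh38), an annexin of epithelia and neutrophils, had the largest spread of the members that were never at 0, from a group mean of 0.140 to one of 158 CPM. In WT cells it stood at 92.7, 100.3 and 95.6 CPM. The het1 libraries gave 0.262, 0.435 and 0.140 CPM, the het2 libraries 3.28, 2.93 and 3.37 CPM and the homo libraries 0.164, 0.131 and 0.125 CPM. The 3 edited lines lay far below WT without overlap, het2 least so, and het1 and homo overlapped. The differences from WT were -8.42 ± 0.10 in het1, -4.91 ± 0.069 in het2 and -9.40 ± 0.11 in homo, or 342-fold, 30.0-fold and 676-fold lower, from only 63 reads in all in het1 and 29 in homo.

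In tumours at day 30, ANXA3 kept the same side in all 3 lines at smaller size. WT tumours gave 139, 152, 149 and 148 CPM, het1 tumours 3.25, 3.07, 4.44 and 3.58 CPM, het2 tumours 18.2, 14.8, 28.7 and 16.6 CPM and homo tumours 5.04, 9.28, 5.96 and 8.06 CPM. The lowest WT library was above the highest library of any edited line, and het1 lay below both other edited lines. The differences were -5.36 ± 0.24, -2.91 ± 0.21 and -4.38 ± 0.23 in het1, het2 and homo. WT tumours held 153 ± 7.53 CPM (SD, n = 4) under DMSO and 158 ± 19.2 CPM under SAHA, against 5.44 ± 1.23 and 4.54 ± 0.874 CPM in het1 tumours.

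ANXA8, an annexin of stratified and other epithelia, was a low gene in WT cells at 6.59, 5.80 and 5.31 CPM and much lower in the other lines. The het1 libraries held 0.199, 0.0815 and 0.210 CPM, het2 0.251, 0.310 and 0.650 CPM and homo 0.436, 0.175 and 0.265 CPM, so the edited lines overlapped one another and none reached WT. The differences from WT in cells were -5.15 ± 0.28, -3.84 ± 0.23 and -4.31 ± 0.26. Among the day 30 tumours WT held 22.5, 30.3, 25.3 and 28.2 CPM, het1 0.219, 0.132, 0.697 and 0.296 CPM, het2 2.51, 3.74, 6.93 and 2.44 CPM and homo 1.85, 2.28, 2.93 and 2.75 CPM. The het1 tumours overlapped the het1 cell values, while het2 and homo tumours lay between het1 and WT, and the differences from WT were -6.29 ± 0.44, -2.76 ± 0.33 and -3.43 ± 0.35.

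The ANXA8 locus (chr10:47460162-47484158, minus strand) has a near-identical copy, ANXA8L1 (chr10:46375627-46391784, plus strand). Of the 75-base words in ANXA8 transcripts 62.8% also occur in another gene, chiefly ANXA8L1, so reads of the pair cannot be assigned with confidence. ANXA8L1, which is no member, fell with it: by 6.04, 3.65 and 4.87 on the log2 scale in het1, het2 and homo cells and by 7.27, 3.00 and 3.71 in their day 30 tumours (adjusted p from 2.68e-25 to 7.88e-07, edgeR). Its WT means were 12.7 CPM in cells and 77.8 CPM in day 30 tumours. Keratinocyte markers moved on the same side in tumours: all 5 were lower than WT in each edited line at day 30 (background 51.5%, 49.2% and 54.8% in het1, het2 and homo). Their summed levels were 116 to 168 CPM in WT, 17.9 to 29.5 in het1, 25.0 to 47.0 in het2 and 5.74 to 10.5 in homo tumours. Their part in the ANXA8 difference was not tested.

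ANXA13 (chr8:123680794-123737407, minus strand), an annexin of intestinal and kidney epithelium that is anchored to membranes by a myristoyl group, was present in WT cells at 36.0, 34.7 and 37.5 CPM. The het1 libraries held 1.06, 1.10 and 0.938 CPM and the het2 libraries 0.442, 0.336 and 0.358 CPM, with 233 and 95 reads in all. No read was counted in any of the 3 homo libraries. The differences from WT were -5.12 ± 0.090 in het1 and -6.57 ± 0.10 in het2, and in homo cells ANXA13 was at least 2478-fold lower, taking 3 counts over the 3 libraries as the limit that a count of 0 allows.

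All 4 lines carried ANXA13 reads as tumours. WT tumours at day 30 held 223, 174, 192 and 190.3 CPM, het1 47.3, 50.6, 64.3 and 64.1 CPM, het2 88.3, 109, 95.7 and 93.7 CPM and homo 25.5, 31.0, 29.2 and 30.6 CPM. The order was WT, het2, het1, homo, with no overlap between any neighbours, and the differences from WT were -1.78 ± 0.10, -1.01 ± 0.10 and -2.74 ± 0.11 in het1, het2 and homo. The homo tumours, at 29.1 CPM, thus lay close to the 36.1 CPM of WT cells, although cells and tumours were counted in separate tables.

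ANXA4, which binds the apical membranes of secretory epithelia, was abundant everywhere and followed the same side. WT cells held 429.9, 416 and 425 CPM, het1 cells 195, 204 and 194 CPM, het2 cells 138, 140.2 and 138 CPM and homo cells 116, 113 and 113 CPM. The 4 lines fell in this order with no overlap, and the differences from WT were -1.10 ± 0.026, -1.61 ± 0.026 and -1.89 ± 0.027. At day 30 the values were 1795, 1443, 1457 and 1475 CPM in WT, 1054, 1095, 1147 and 1324 CPM in het1, 779.5, 709, 843 and 763 CPM in het2 and 752, 900.2, 782 and 892 CPM in homo. No edited tumour reached the lowest WT tumour, het2 and homo overlapped, and the differences were -0.42 ± 0.085, -0.99 ± 0.085 and -0.89 ± 0.085. The gene (chr2:69644425-69827100, plus strand) overlaps AAK1 on the opposite strand, and no source used here states the strand setting of the counting.

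ANXA2 (chr15:60347134-60402883, minus strand), the S100A10 partner, was the most abundant member per kilobase of exon in WT cells, at 1258 ± 28.1 CPM per kb against 664 ± 19.1 for ANXA1 and 178 ± 4.37 for ANXA5. Its CPM was 2424, 2376 and 2318 in WT cells, 1347, 1320 and 1340 in het1, 1693, 1700 and 1678 in het2 and 964, 963 and 974 in homo cells. The lines did not overlap, and homo cells were lowest. The differences from WT were -0.83 ± 0.022, -0.49 ± 0.022 and -1.29 ± 0.022. In the xenografts at day 30 the gap was smaller: WT held 2304, 2252, 2182 and 2391 CPM, het1 1996, 2050, 2014 and 1977 CPM, het2 1811, 1701, 2191 and 1859 CPM and homo 1542, 1808, 1560 and 1752 CPM. Here het2 overlapped WT, and the differences were -0.18 ± 0.070, -0.27 ± 0.070 and -0.45 ± 0.070. The het1 call at day 30 ended without WT replicate 0 or 4 or without any 1 of the 4 het1 libraries, at values from -0.19 to -0.16, and both het calls ended with host markers as a covariate, at -0.15 for het1 and -0.19 for het2.

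Of the ANXA2 transcript words 4.10% also occur in another gene, and 44.1% of the words of the pseudogene ANXA2P2 do. ANXA2P2 was counted at 1021 CPM in WT cells and 411 CPM in homo cells, and it fell by 0.84, 0.50 and 1.31 on the log2 scale in het1, het2 and homo cells (adjusted p 2.74e-25, 2.32e-19 and 7.46e-31, edgeR). Its values thus tracked those of ANXA2, and reads of the 2 cannot be fully separated. ANXA2P1 and ANXA2P3 stayed at or under 1.26 CPM in every group.

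S100A10, which binds ANXA2 into a tetramer, was lower in the cells of the edited lines, while its tumour differences were small. It stood at 637, 629 and 639 CPM in WT cells, 358, 358 and 376 in het1, 341, 325 and 335 in het2 and 167, 166 and 169 in homo cells. It fell by 0.80, 0.93 and 1.92 on the log2 scale (adjusted p 1.9e-23, 2.63e-25 and 9.48e-34, edgeR). In day 30 tumours S100A10 ranged only from 595 to 793 CPM over all 16 libraries, and its differences of 0.091 ± 0.059, -0.14 ± 0.059 and -0.090 ± 0.059 did not pass (adjusted p 0.212, 0.0596 and 0.207). Of the 5 S100 partners tested in cells, 4 fell in each edited line (S100A10, S100A11, S100A6 and S100A4) and none rose. The background in het1, het2 and homo cells was 62.8%, 68.5% and 70.5% of all genes called. Tumours at day 30 had 3, 1 and 2 that rose and 0, 1 and 1 that fell in het1, het2 and homo (background 51.5%, 49.2% and 54.8%). S100A4, a partner linked to cell motility, went from 590.3 CPM in WT cells to 34.2 in homo cells, but from 439 to 538 CPM in tumours. Whether these differences differ between cells and tumours was not tested.

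Among genes of plasminogen activation, the surface reaction that ANXA2 and S100A10 promote, PLAU (urokinase) fell in het1 and homo cells by 1.66 and 5.34 on the log2 scale and in het1 and homo tumours by 3.91 and 2.55 (adjusted p 8.4e-16, 1.06e-22, 2.64e-08 and 9.01e-07, edgeR). In het2 PLAU differed by -0.14 ± 0.067 in cells and -0.34 ± 0.23 in tumours without passing. PLAUR, its receptor, rose in the cells of all 3 lines, by 0.68, 0.66 and 0.45. Of the list of 6, 4 were tested in cells, with 1 higher and 2 lower in het1, 3 and 0 in het2, and 1 and 2 in homo (background 62.8%, 68.5% and 70.5%). Of 5 tested in day 30 tumours, 2 rose and 1 fell in het1, 1 rose and 1 fell in het2, and 4 fell in homo (background 51.5%, 49.2% and 54.8%).

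**Figure D2:**
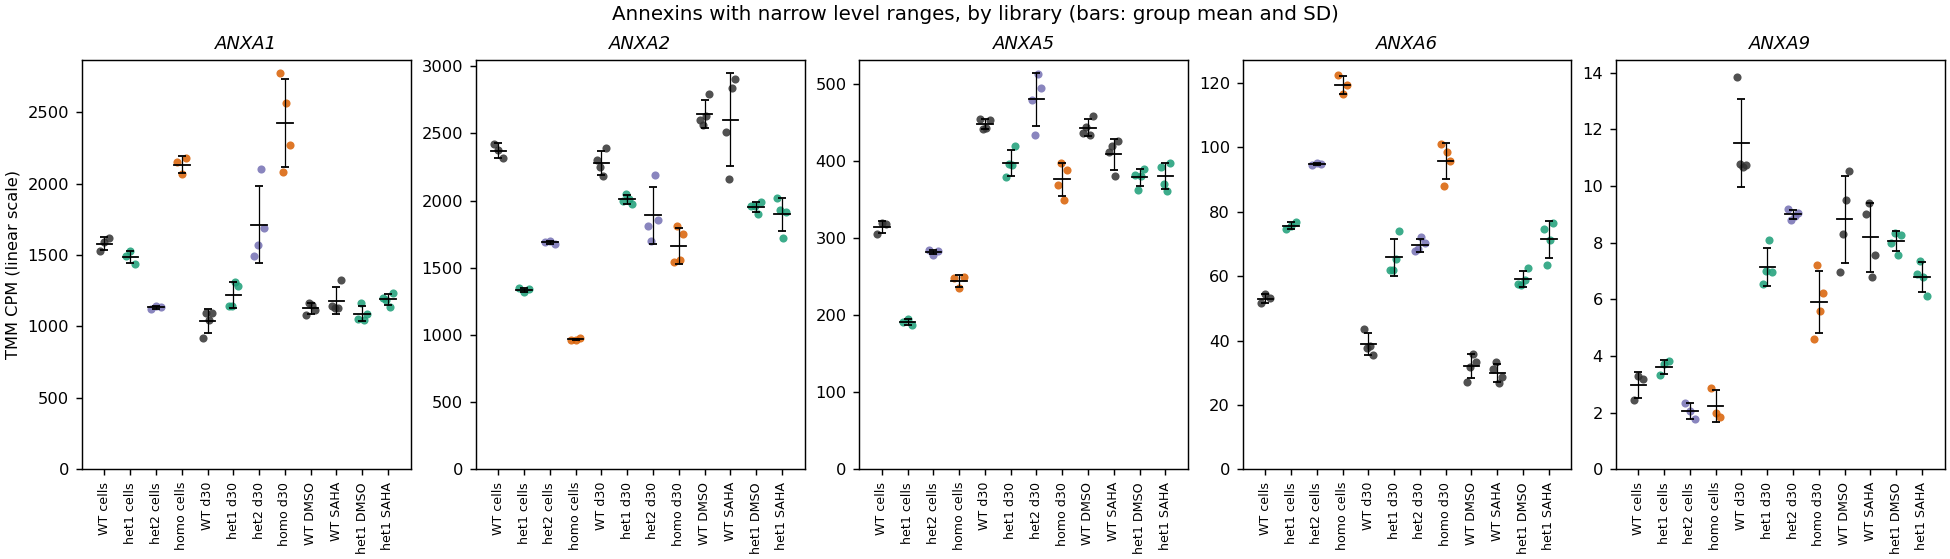
TMM CPM in each library (dots) for the 5 members with narrower ranges, on linear axes from 0, with group means and SD as bars; colours mark the lines as WT dark grey, het1 green, het2 purple and homo orange. ANXA6 in WT lies below all other lines in each experiment, and ANXA1 is highest in homo cells and homo tumours.

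ANXA6 (chr5:151100712-151157882, minus strand), an annexin with a duplicated core that scaffolds signalling and endosomal membranes, was the member that was higher in every edited line in every comparison with WT. WT cells held 51.7, 54.4 and 53.0 CPM, het1 cells 74.5, 75.6 and 76.7 CPM, het2 cells 94.5, 95.2 and 94.9 CPM and homo cells 122, 117 and 119 CPM. The lines stood in that order without overlap, at 0.51 ± 0.032, 0.84 ± 0.031 and 1.17 ± 0.031 against WT. Among the day 30 tumours WT held 43.6, 37.7, 38.3 and 35.5 CPM, het1 61.9, 61.8, 65.4 and 74.1 CPM, het2 67.7, 68.4, 72.2 and 70.2 CPM and homo 101, 88.1, 98.5 and 95.7 CPM. Homo was again highest and het1 and het2 overlapped, with differences of 0.76 ± 0.067, 0.84 ± 0.067 and 1.30 ± 0.068. Genes listed as fibroblast markers were also higher in sum in the edited cells, at 51.3 to 74.2 CPM against 9.86 to 10.9 CPM in WT cells. These were cultures of the A549 lines alone, and a relation of these genes to ANXA6 was not tested.

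ANXA1 (chr9:73151757-73170393, plus strand) differed in direction between lines and between cells and tumours. In cells it stood at 1530, 1588 and 1620 CPM in WT, 1491, 1526 and 1439 in het1, 1125, 1144 and 1133 in het2 and 2148, 2067 and 2181 in homo. Homo was highest and het2 lowest, and the differences from WT were -0.088 ± 0.025, -0.48 ± 0.025 and 0.43 ± 0.025. At day 30 WT was lowest at 921, 1092, 1043 and 1095 CPM, followed by het1 at 1141, 1143, 1313 and 1282 CPM, het2 at 1491, 1573, 2099 and 1686 CPM and homo at 2772, 2079, 2566 and 2270 CPM. No edited tumour overlapped WT, and the differences were 0.23 ± 0.10, 0.72 ± 0.10 and 1.22 ± 0.10. The het1 tumour value did not pass, although it did without het1 replicate 1 (0.28), with only WT and het1 in the fit (0.24) and among genes averaging at least 1 CPM (0.25).

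The list set beside ANXA1 held its receptors and genes of arachidonate release, and its values were mixed. The formyl peptide receptors FPR1, FPR2 and FPR3 were at or below 0.0323 CPM in every group and were not tested. PTGS2 (cyclooxygenase 2) rose in het1 and het2 cells by 0.70 ± 0.045 and 0.78 ± 0.045, fell in homo cells by 1.44 on the log2 scale, and rose in all 3 lines as tumours by 2.45 ± 0.096, 2.67 ± 0.096 and 2.03 ± 0.094 (adjusted p at most 1.12e-11, edgeR). PLA2G4A, the cytosolic phospholipase A2, fell in cells by 0.50, 0.68 and 2.08 on the log2 scale. ALOX5, which was low in cells, fell in tumours by 3.54, 2.28 and 5.83 on that scale, from a WT tumour mean of 33.5 CPM. Myeloid marker sums were 32.5 to 45.9 CPM in WT tumours against 13.3 to 31.4 in the other lines. Single markers were mixed: of 5 tested, 1 rose and 3 fell in het1, 1 and 2 in het2, and 3 and 1 in homo (background 51.5%, 49.2% and 54.8%). Their part in the ALOX5 difference was not tested.

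Of the glucocorticoid receptor NR3C1 and its targets, a list related to ANXA1 induction, 6 of 7 were tested. In cells 3 rose and 3 fell in het1, 5 rose and 0 fell in het2, and 4 rose and 1 fell in homo (background 62.8%, 68.5% and 70.5%). The xenografts at day 30 had 3 and 3, 4 and 1, and 4 and 0 such genes (background 51.5%, 49.2% and 54.8%). KLF9, a glucocorticoid-induced zinc-finger factor, rose in every line, by 0.73 ± 0.066, 0.74 ± 0.066 and 1.31 ± 0.065 in cells and 1.60 ± 0.14, 1.92 ± 0.14 and 2.38 ± 0.14 in tumours (adjusted p at most 3.09e-08, edgeR).

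ANXA5 (chr4:121667955-121697113, minus strand), the phosphatidylserine binder, had group means from 191 to 480 CPM. Cells held 314 ± 7.70 CPM in WT (SD, n = 3), 191 ± 3.92 in het1, 282 ± 2.88 in het2 and 244 ± 7.94 in homo. All edited cell lines were below WT without overlap, by -0.72 ± 0.027, -0.16 ± 0.027 and -0.36 ± 0.027. In day 30 tumours the differences were -0.17 ± 0.056, 0.099 ± 0.056 and -0.25 ± 0.056, and het2 did not pass. The het1 call ended without het1 replicate 1 (-0.14) and with host markers as a covariate (-0.12), where homo (-0.14) was not called either. The het2 value passed without het2 replicate 1 (0.16) and with that covariate (0.21).

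Genes that flip or expose phosphatidylserine were mostly higher in edited cells: of 7 listed, 6 rose and 1 fell in het1, 7 rose in het2, and 5 rose and 1 fell in homo (background 62.8%, 68.5% and 70.5%). The list medians were 0.61, 0.59 and 0.57 on the log2 scale, beside 0.025, 0.017 and 0.005 over all genes. TMEM30A, the subunit that flippases need, rose by 1.29 ± 0.026, 1.29 ± 0.026 and 0.57 ± 0.026 in cells and by 1.25 ± 0.054, 1.42 ± 0.054 and 1.63 ± 0.054 in day 30 tumours (adjusted p at most 1.37e-13, edgeR). In tumours 3 of 7 rose in each line and 0, 1 and 2 fell (background 51.5%, 49.2% and 54.8%). ANO6, a scramblase that acts in the opposite sense to flippases, was among those lower in het2 and homo tumours, at -0.48 ± 0.064 and -0.41 ± 0.064.

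The membrane repair list, in which annexins act with ferlins, calpains and ESCRT proteins, moved mostly down in cells: of 8 tested, 1 rose and 6 fell in het1, 2 and 6 in het2, and 1 and 6 in homo (background 62.8%, 68.5% and 70.5%). CAPN2, a calpain, went from 653 CPM in WT cells to 226, 300.4 and 189 CPM. DYSF (dysferlin) rose from 0.369 CPM to 1.48 in het1 and 3.04 in homo cells, by 2.04 ± 0.21 and 3.07 ± 0.19 (adjusted p 2.57e-10 and 1.74e-15, edgeR). In tumours at day 30, 1 and 4, 2 and 5, and 3 and 3 genes rose and fell in het1, het2 and homo (background 51.5%, 49.2% and 54.8%).

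ANXA9 (chr1:150982017-150995634, plus strand), an atypical annexin whose calcium-binding sites are thought not to work, was low in cells, at 2.98 ± 0.468 CPM in WT, 3.62 ± 0.257 in het1, 2.06 ± 0.279 in het2 and 2.23 ± 0.571 in homo (SD, n = 3). Its differences were 0.27 ± 0.14 in het1, which was not called, -0.55 ± 0.15 in het2 and -0.42 ± 0.15 in homo, where the groups overlapped. The homo call ended without WT replicate 2 or 3 or homo replicate 2 or 3, at values from -0.37 to -0.31. Among the day 30 tumours the means were 11.5 ± 1.56, 7.15 ± 0.672, 9.00 ± 0.165 and 5.91 ± 1.09 CPM in WT, het1, het2 and homo (SD, n = 4), and every edited line lay below every WT library. The het2 value of -0.35 ± 0.11 was not called without WT replicate 0 (-0.25) or with the host covariate (-0.27).

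ANXA10 (chr4:168092515-168187690, plus strand), a gastric-type annexin with few calcium-binding residues, was near the limit of detection, with 2 to 183 reads per library, and its direction differed between lines. In cells it stood at 0.467, 0.234 and 0.429 CPM in WT, 1.34, 1.29 and 1.05 in het1, 0.131, 0.142 and 0.224 in het2 and 0.0681, 0.0292 and 0.0624 in homo. Only het1 lay above WT, and the differences were 1.71 ± 0.29, -1.16 ± 0.35 and -2.78 ± 0.45. At day 30 the WT libraries held 0.0361, 0.0993, 0.197 and 0.171 CPM, het1 1.39, 1.85, 1.96 and 1.38 CPM, het2 1.25, 1.65, 1.95 and 1.95 CPM and homo 0.159, 0.363, 0.689 and 0.372 CPM. Both het lines lay above all WT tumours, homo overlapped WT, and the differences were 3.67 ± 0.37, 3.72 ± 0.37 and 1.66 ± 0.41. The fitted differences of homo and het2 were thus below 0 in cells and above 0 in tumours.

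**Figure D3:**
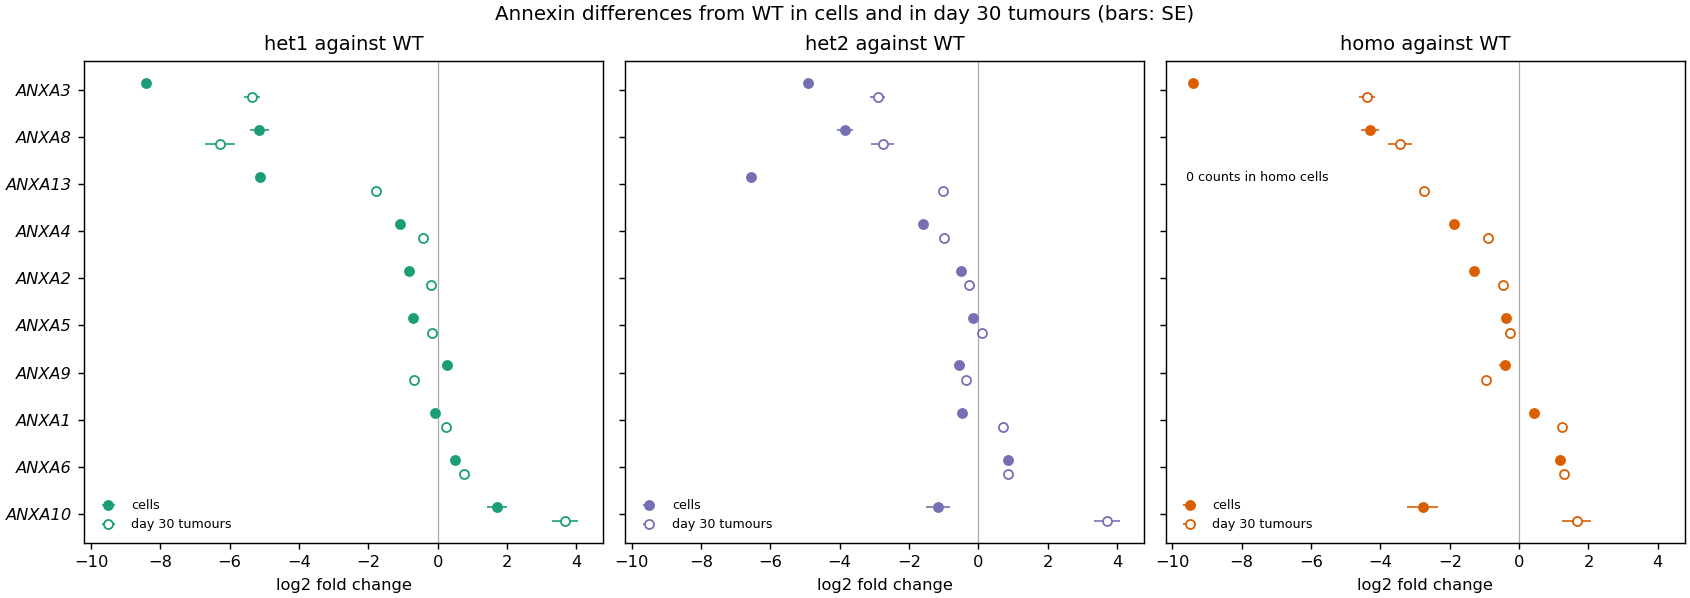
Log2 fold change against WT (x axis, bars are SE) of each member in cells (filled) and day 30 tumours (open), 1 panel per edited line; ANXA13 in homo cells had 0 counts and is not drawn. For ANXA2, ANXA3, ANXA4, ANXA5 and ANXA13 the tumour value lies nearer 0 than the cell value in every line where both are drawn. ANXA6 lies above 0 throughout, and ANXA5 and ANXA10 are among those that change side in het2.

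The members were also set side by side between cells and tumours of the same line, as levels only, since the tables were separate experiments. ANXA4 was 3.64 times as high in WT tumours as in WT cells and 5.84, 5.57 and 7.27 times as high in het1, het2 and homo. ANXA13 was 5.40 times as high in WT and 54.8 and 255 times as high in het1 and het2. ANXA3 was 1.53, 12.9, 6.13 and 50.6 times as high in WT, het1, het2 and homo tumours. ANXA6 was the one member lower in tumours in every line, at 0.732, 0.870, 0.734 and 0.803 of the cell level. ANXA1 was lower in WT and het1 tumours, at 0.657 and 0.821 of the cell level, and higher in het2 at 1.51. ANXA1 and ANXA2 together made up 80.9% of the summed member CPM in WT cells and 86.6% in homo cells, against 57.9% and 75.2% in the day 30 tumours of these lines.

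Ordered by group mean, the highest group of ANXA2, ANXA3, ANXA4, ANXA8, ANXA9 and ANXA13 was a WT tumour group, and the lowest a cell group of an edited line. For ANXA3 the 3 WT tumour groups overlapped at 147 to 158 CPM and lay above WT cells at 96.2 ± 3.87 CPM, which lay above all other groups. For ANXA13 the WT DMSO, day 30 and SAHA groups overlapped at 198 ± 15.8, 195 ± 20.4 and 171 ± 27.2 CPM, and het2 day 30, het1 DMSO and het1 day 30 tumours came next. The order of ANXA6 ran the other way, from 119 ± 2.85 CPM in homo cells to 29.9 ± 2.85 CPM in WT SAHA tumours, and its 3 WT tumour groups overlapped at the bottom. For ANXA1 the 2 homo groups overlapped at the top, and the 7 groups from het1 day 30 tumours down to WT day 30 tumours each overlapped the next.

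Next, homo was set against the average of both het lines. In cells 8 members were called (3 higher, 5 lower; background 49.9%). ANXA13 had 0 counts in homo, and of the others the largest differences were -3.05 ± 0.41 for ANXA10 and -2.74 ± 0.26 for ANXA3, followed by 0.72 ± 0.021 for ANXA1 and -0.64 ± 0.019 for ANXA2. ANXA5, at 0.073 ± 0.023, was not called without homo replicate 1 (0.060) or 3 (0.056), whereas ANXA9, at -0.28 ± 0.13, passed only without homo replicate 1 (-0.52) or het2 replicate 3 (-0.34). In the xenografts at day 30, 9 were called (3 higher, 6 lower; background 44.7%), with -2.04 ± 0.30 for ANXA10, -1.34 ± 0.094 for ANXA13, 1.09 ± 0.34 for ANXA8 and 0.74 ± 0.086 for ANXA1. ANXA3, at -0.24 ± 0.19, was not. Some called members lay between the 2 het lines in homo, so their calls hold against the average only. These were ANXA8 in tumours (homo 2.45, het1 0.336 and het2 3.91 CPM), ANXA4 in tumours (831, 1155 and 774 CPM) and ANXA5 in cells (244, 191 and 282 CPM). For other called members the homo libraries overlapped those of a het line. These were ANXA3 in cells (with het1), ANXA5 and ANXA9 in tumours (with het1) and ANXA1 and ANXA2 in tumours (with het2). The ANXA8 call ended without homo replicate 4 (0.98), and the ANXA4 call, at -0.18 ± 0.074, ended when any of 7 libraries was left out, among them homo replicate 0 (-0.15) and homo replicate 4 (-0.17), het1 replicates 3 and 4 and het2 replicates 0, 3 and 4. It also ended with RLE size factors, without a filter on low counts, with replicate numbers as a block, with host markers as a covariate and with DESeq2, at values from -0.22 to -0.13.

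In the separate experiment with vehicle and SAHA, het1 was compared with WT in each arm. Under DMSO 8 members were called (2 higher, 6 lower; background 54.0%) and under SAHA 7 (2 higher, 5 lower; background 58.9%). ANXA3 differed by -4.81 ± 0.16 and -5.13 ± 0.17, ANXA8 by -7.34 ± 0.37 and -6.96 ± 0.35, and ANXA13 by -1.62 ± 0.11 and -2.32 ± 0.12 under DMSO and SAHA. ANXA6 and ANXA10 were higher in het1 in both arms, at 0.88 ± 0.081 and 1.26 ± 0.081, and at 2.53 ± 0.41 and 2.24 ± 0.43. ANXA1 overlapped WT in both arms, at -0.051 ± 0.059 and 0.011 ± 0.059. Under SAHA, ANXA5, at -0.10 ± 0.050, passed only without WT replicate 6 (-0.14) or het1 replicate 6 (-0.13), and ANXA9, at -0.27 ± 0.12, only without WT replicate 6 (-0.35) or without a filter on low counts (-0.29).

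**Figure D4:**
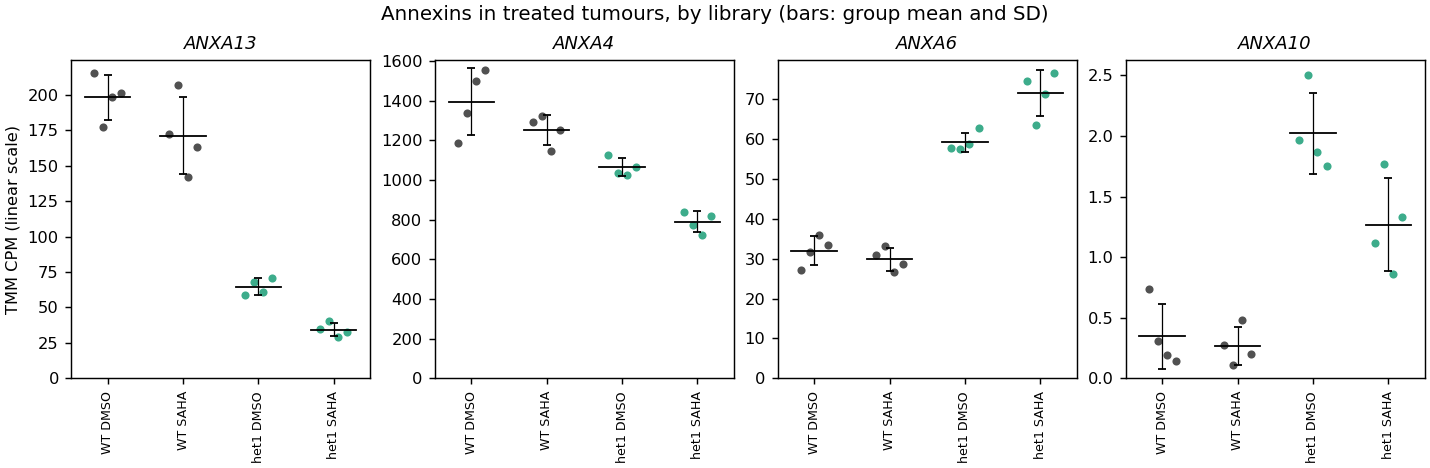
TMM CPM in each library (dots) of the DMSO and SAHA tumours for 4 members on linear axes from 0, with group means and SD as bars (n = 4); WT is dark grey and het1 green. ANXA13 and ANXA4 in het1 lie lower under SAHA than under DMSO without overlap, and the WT groups overlap for all 4 members.

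SAHA was compared with DMSO within each genotype. In WT tumours 0 members and 0% of all genes were called by edgeR. At an unadjusted p under 0.05 edgeR gave 1911 genes, and DESeq2 called 150. In het1 tumours 3 members were called (1 higher, 2 lower; background 16.8%). ANXA13 in het1 tumours was 58.5, 68.0, 61.1 and 71.0 CPM under DMSO and 34.9, 40.7, 29.3 and 32.5 CPM under SAHA, which did not overlap, a difference of -0.91 ± 0.11. In WT tumours it was 215, 177, 199 and 202 CPM and 172, 207, 142 and 163 CPM, which overlapped, at -0.21 ± 0.11.

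ANXA4 in het1 tumours stood at 1127, 1036, 1027 and 1065 CPM under DMSO and 841, 774, 722 and 819 CPM under SAHA, without overlap, a difference of -0.43 ± 0.076, while WT gave -0.15 ± 0.076. ANXA6 in het1 tumours stood at 57.7, 57.4, 58.8 and 62.7 CPM under DMSO and 74.6, 63.5, 71.2 and 76.6 CPM under SAHA. The groups did not overlap, and the difference of 0.27 ± 0.080 was called, but not without DMSO replicate 2, 3 or 4 or SAHA replicate 1, 3 or 6 of het1, at values from 0.23 to 0.28, nor with replicate numbers as a block (0.32). ANXA10 in het1 tumours differed by -0.67 ± 0.36, overlapped, and passed only with host markers as a covariate (-1.19) or with the 2 groups alone in the fit (-0.67).

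An interaction term of SAHA with genotype called 1 member, ANXA13, beside 4.72% of all genes. Its interaction was -0.70 ± 0.16. The call held without each single library in turn, and ended without a filter on low counts (-0.70), with host markers as a covariate (-0.50) and with replicate numbers as a block (-0.59). ANXA6, at 0.38 ± 0.11, was not called, but passed without WT DMSO replicate 2 (0.45), WT SAHA replicate 4 (0.42) or het1 SAHA replicate 2 (0.43), without a filter on low counts (0.37), among genes averaging at least 1 CPM (0.40), with host markers as a covariate (0.52) and with DESeq2 (0.37).

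No gene of the companion lists was called for SAHA in WT tumours. In het1 tumours SAHA was called for 0 of 5 S100 partners, 0 of 4 arachidonate genes, 1 of 5 plasminogen genes, 1 of 7 phosphatidylserine genes, 1 of 8 membrane repair genes and 2 of 6 glucocorticoid genes tested, beside 16.8% of all genes. PLAU rose by 0.86 ± 0.27, CAPN1, a calpain, fell by 0.14 on the log2 scale, and DUSP1, a phosphatase of MAP kinases, and TSC22D3 (GILZ) rose by 0.94 ± 0.16 and 0.40 ± 0.097 (adjusted p from 0.00165 to 0.0471, edgeR). Of these 4 genes the interaction was called for DUSP1 (0.87 ± 0.23) and TSC22D3 (0.59 ± 0.14), with adjusted p of 0.0457 and 0.0227 (edgeR).

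Of the protein-coding annexins outside the list, ANXA8L1 is described above, and ANXA7 and ANXA11 had values as follows. ANXA7 fell in the cells of all 3 lines by 0.11, 0.11 and 0.24 on the log2 scale and in day 30 tumours by 0.16, 0.29 and 0.22 (adjusted p at most 0.00902, edgeR). ANXA11 fell in het2 and homo cells by 0.51 and 0.13 and in het2 and homo tumours by 0.51 and 0.30, and in het1 it differed by 0.024 ± 0.027 in cells and -0.098 ± 0.047 in tumours without passing. Their group means ran from 100.2 to 148 CPM for ANXA7 and from 148 to 224 CPM for ANXA11.

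Genes whose 12 group means were most like those of a member were ranked by Pearson's r of log2(CPM + 1) over 10920 protein-coding genes averaging at least 5 CPM. The 12 points share genotype, experiment and scaling, so these values describe and carry no test. For ANXA13 they were SLC7A7, SPDEF and TM4SF20 (r = 0.994, 0.991 and 0.991), 3 genes with their lowest mean in homo cells, as for ANXA13, and their highest in WT day 30 tumours, where ANXA13 was highest in WT DMSO tumours. For ANXA4 they were EPS8L3, RNPEPL1 and TMCO4 (0.988, 0.987 and 0.986), and for ANXA3 CXCL5, VCPKMT and DCBLD1 (0.974, 0.972 and 0.971). For ANXA8 they were its copy ANXA8L1 (0.997), PDE7A (0.988) and RUNX1 (0.980), and for ANXA10 ACSS3, COPZ1 and GOLT1B (0.919, 0.917 and 0.901). Among the members themselves ANXA4 and ANXA13 were most alike (0.97), followed by ANXA4 and ANXA9 (0.94) and ANXA3 and ANXA8 (0.93), and ANXA6 ran against ANXA3, ANXA2 and ANXA8 (-0.87, -0.86 and -0.86).

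The nearest protein-coding gene on each side of each member was read as well, and 15 of these 20 neighbours were tested. In the cells of each edited line 5 neighbours rose and 8 fell (background 62.8%, 68.5% and 70.5% in het1, het2 and homo). FRAS1, an extracellular matrix gene that ends 7250 bases before ANXA3 on the same strand, fell wherever ANXA3 was lower. Its mean was 47.9 CPM in WT cells against 2.31, 13.2 and 1.31 CPM in het1, het2 and homo, 20.7-fold, 3.62-fold and 36.7-fold lower (adjusted p 1.29e-30, 2.04e-23 and 8.74e-32, edgeR). In day 30 tumours it was 6.38-fold, 2.55-fold and 4.24-fold lower (adjusted p 2.42e-08, 2.34e-05 and 2.52e-07). For both genes the order of the 3 lines by size was homo, het1, het2 in cells and het1, homo, het2 in tumours.

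CCDC69, 23.2 kb from ANXA6, rose with it in every line, by 1.31 ± 0.088, 1.43 ± 0.086 and 1.21 ± 0.089 in cells and 1.02 ± 0.10, 1.51 ± 0.10 and 1.37 ± 0.10 in day 30 tumours (adjusted p at most 3.5e-08, edgeR). ZNF488, 75.9 kb from ANXA8, fell in all 3 lines by 1.87, 1.34 and 1.48 on the log2 scale in cells and 0.93, 2.03 and 0.96 in day 30 tumours. AAK1, which overlaps ANXA4, rose in cells by 0.28 ± 0.034, 0.69 ± 0.034 and 0.98 ± 0.034, on the other side from ANXA4. ALDH1A1, 71.3 kb from ANXA1, lay on the side of ANXA1 in some comparisons and not in others: it fell in het2 cells by 1.03 and rose in het2 and homo day 30 tumours by 0.39 ± 0.066 and 0.39 ± 0.066, on the side of ANXA1, but fell in homo cells by 0.17, where ANXA1 was higher, and rose in het1 cells by 0.13 ± 0.022, where ANXA1 was lower. RORB, the neighbour on the other side at 1327 kb, was at most 0.0601 CPM on average in every group except homo cells (4.14 ± 0.514 CPM, SD, n = 3) and homo day 30 tumours (5.44 ± 2.91 CPM, SD, n = 4), the 2 groups in which ANXA1 was highest, and it rose against WT in both (adjusted p 1.44e-18 and 1.25e-09, edgeR). These 6 neighbours were picked from the 15 after their values were seen.

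**Figure D5:**
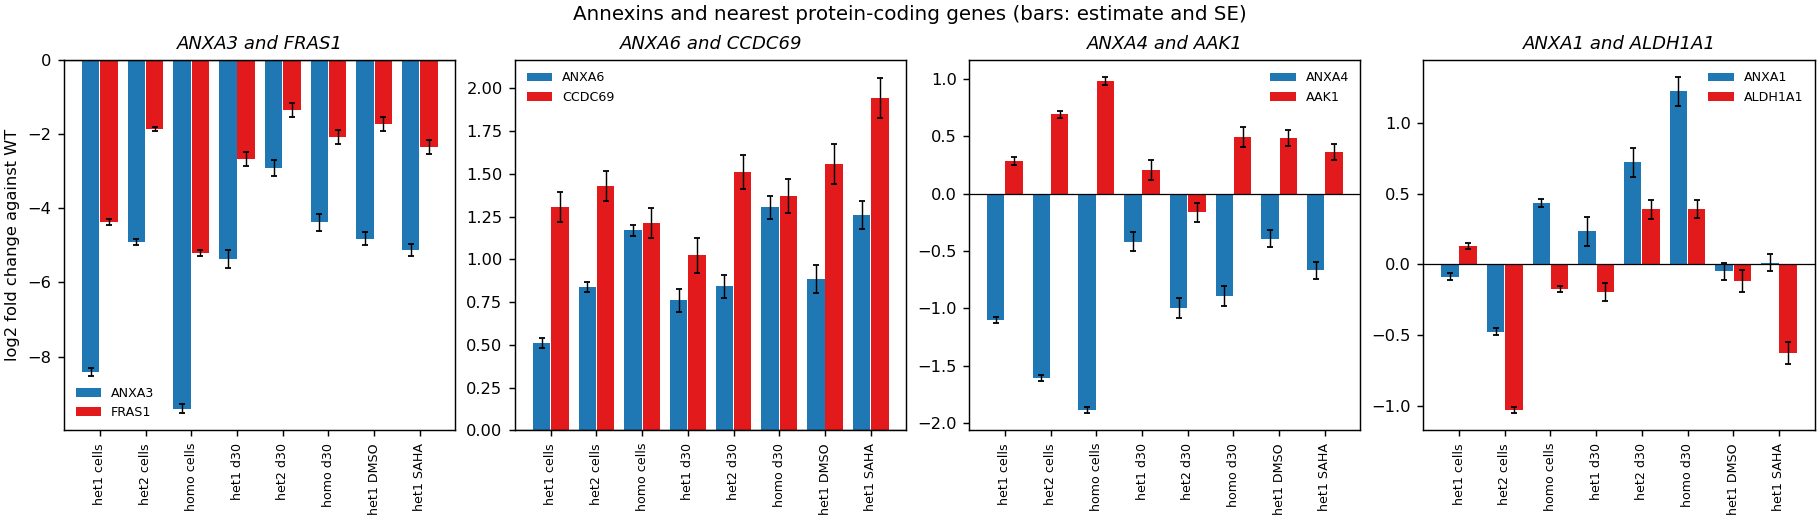
Log2 fold change against WT (y axis, bars are estimates and whiskers SE) in 8 comparisons for 4 members (blue) and a neighbouring gene of each (red). FRAS1 lies on the same side as ANXA3 and CCDC69 on the same side as ANXA6 in all 8, while AAK1 lies on the other side from ANXA4 in 7 of 8 and ALDH1A1 lies on the same side as ANXA1 in 4 of 8.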

How the data were processed

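Per the labels' protocols, KAPA stranded mRNA-seq libraries were made from polyA RNA. The authors deposited raw read counts per gene in 3 tables (cells, day 30 tumours, treated tumours); per the submitters' processing notes, HISAT2 and HTSeq were used with hg38. Versions, annotation release and strand setting are not given in any source used here. All 58721 identifiers of each table matched GENCODE 29.

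Tables were fitted separately, with all groups of a table together, in edgeR 4.0.16 (R 4.3.3; TMM scaling, filterByExpr, robust quasi-likelihood fit), with Benjamini-Hochberg adjustment over all genes tested. All 10 members passed the filter in every table. The SE was taken from the estimate and its F statistic. The procedure was checked on simulated counts. Total counts of at least 61168373 per library limit only the lowest genes, and floors cover counting error only, since reads carry no molecular identifiers.

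The members, the 8 gene lists and the 7 marker lists were chosen with earlier results of these data known. Named genes are the members, the other annexins, their copies and S100 partners, up to 4 genes of each other list by p, both nearest neighbours of each member, and the 3 genes most like each member with at least 8-fold range. Alternatives were RLE size factors, other filters, DESeq2 1.42.0, only the groups compared, a replicate block, host markers as a covariate and leaving out each library. Promoter sequences come from RefSeq. No window was found for ANXA8, and member windows on chromosome 8, where ANXA13 lies, were left out. 1 gene of the phosphatidylserine list is counted but not reported by name.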

Additional observations from a re-analysis of the deposited data

Results flagged for a closer look

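Among the 80 groups of 4 tumour libraries examined (10 members in 8 groups), 3 held 1 library far from the other 3 by Dixon's criterion, which chance alone gives in about 1 of 20 groups. ANXA1 stood at 1323 CPM in WT SAHA replicate 8, the highest of its group. WT day 30 replicate 0 was the highest of its group for both ANXA4 (1795 CPM) and ANXA9 (13.8 CPM).

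The SAHA effect on ANXA13 differed between het1 and WT tumours by -0.70 on the log2 scale, from the interaction term. The following pairs lay on opposite sides of WT in cells and in day 30 tumours, with every library on its side, and the difference between the 2 effects was not tested. ANXA1 in het1 differed from WT by 0.23 in tumours and -0.088 in cells, and in het2 by 0.72 and -0.48. ANXA9 in het1 differed by -0.69 in tumours and 0.27 in cells. ANXA10 in het2 differed by 3.72 in tumours and -1.16 in cells.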

How the results depend on the processing

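The number of members called stayed within 1.5 times its reported value under every alternative run, except for the interaction of SAHA with genotype. There 1 member was called as reported, 2 with DESeq2, 2 among genes averaging at least 1 CPM, 0 with the replicate block and 1 to 2 without single libraries. For SAHA in het1 tumours the replicate block called 2 members in place of 3, without ANXA6 (0.32). The block also ended the ANXA4 call for homo against the het lines in day 30 tumours (-0.22) and the ANXA13 interaction (-0.59), and changed no other call of a member. Over all genes the block called 19 in place of 1066 for the interaction and 812 in place of 3801 for SAHA in het1. In their deviations from group means, same-numbered libraries of different groups had a median correlation of 0 in cells, 0 at day 30 and -0.04 in treated tumours. Single pairs ran from -0.22 to 0.14, from -0.26 to 0.21 and from -0.20 to 0.23. Values above 0.1 were seen in 1 of 18, 4 of 17 and 4 of 12 pairs. The numbers were not taken to pair samples, but a median near 0 cannot exclude pairing of some libraries.

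Direction changed only for differences that were not called. With the replicate block ANXA1 in het1 against WT under DMSO was 0.011, ANXA8 under SAHA in het1 -0.13 and the ANXA8 interaction -0.31. With host markers as a covariate ANXA2 under SAHA in WT was 0.019, and the interactions of ANXA8 and ANXA9 were -0.11 and 0.008. ANXA1 in het1 against WT under SAHA was -0.008 without a filter, and the ANXA2 interaction was 0.007 among genes averaging at least 1 CPM. Without single libraries ANXA1 in het1 against WT under SAHA ran from -0.014 to 0.070 and ANXA8 in homo against the het lines in cells from -0.24 to 0.45. For SAHA in WT tumours the ranges were -0.080 to 0.055 for ANXA2, -0.021 to 0.12 for ANXA3, -0.15 to 0.31 for ANXA8 and -0.84 to 0.30 for ANXA10. For SAHA in het1 tumours they were -0.075 to 0.001 for ANXA2 and -0.023 to 0.030 for ANXA5, and for the interaction -0.11 to 0.037 for ANXA2 and -0.97 to 0.16 for ANXA10. The cause was not tested. Group levels moved by factors of 0.936 to 1.03 when all 44 libraries were scaled together and 0.922 to 1.06 without TMM factors. ANXA10, ANXA8 in the edited lines and ANXA3 in het1 and homo cells rest on few reads.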
